A study of Mus musculus with 6 samples.

Results

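The genes of cholesterol synthesis, sterol sensing, and sterol uptake and transport were compared between 2 midbrain regions taken from C57BL/6 mice at embryonic day 10.5. One region was the floor plate, which lies along the ventral midline, and the other was the ventral lateral region beside it, which shared no tissue with it. Each region had 3 arrays, and each array carried RNA pooled from 6 embryos of mixed sex. The members were fixed as a list of 31 genes, of which 30 had at least 1 probe set annotated to a single gene symbol, among 18193 such genes on the array. These 30 genes had 66 probe sets, of 45037 tested. By role they fell into 17 genes of synthesis (38 probe sets), 5 of sterol sensing (9 probe sets) and 8 of uptake and transport (19 probe sets). Values of Acat2, the remaining listed gene, were not analysed here, and it enters only the promoter counts, as a synthesis gene.

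Cholesterol is made from acetyl-CoA through mevalonate, the isoprenoid farnesyl diphosphate, squalene and lanosterol. Sterol levels in the endoplasmic reticulum control the pathway: when they are low, Scap carries the membrane-bound SREBP factors, encoded by Srebf1 and Srebf2, to the Golgi, where they are cut and released to switch on synthesis and uptake genes, and Insig proteins hold Scap back when sterols are high. In the early neural tube cholesterol also matters to patterning, since it is attached to the Sonic hedgehog protein that the floor plate secretes and acts in the receiving pathway.

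SREBP factors are known to bind sterol response elements beside sites of partner factors, and promoters of 2 genes are shown. Hmgcs1, a textbook SREBP target, is the one listed gene whose searched promoter held the SRE-like letters, and Srebf1 is the member whose RNA differed between the regions. All stretches are from RefSeq (GRCm38.p6), 5′ to 3′ on the gene's strand, and lie before the annotated start. Capitals mark TCACNCCAC (called SRE-like here), CCAAT and GGGCGG (GC box) on either strand. Hmgcs1 is on the plus strand at chr13:119690166-119690265. For Srebf1, on the minus strand, the stretches before all 3 annotated starts are given, at chr11:60210472-60210591, chr11:60220628-60220747 and chr11:60222582-60222701, because the array values do not say which start was used.
Hmgcs1: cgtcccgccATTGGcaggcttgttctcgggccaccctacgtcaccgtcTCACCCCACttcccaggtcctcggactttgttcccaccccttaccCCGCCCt
Srebf1, chr11:60210472-60210591: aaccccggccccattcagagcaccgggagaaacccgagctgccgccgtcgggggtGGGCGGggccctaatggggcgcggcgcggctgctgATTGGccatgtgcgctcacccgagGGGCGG
Srebf1, chr11:60220628-60220747: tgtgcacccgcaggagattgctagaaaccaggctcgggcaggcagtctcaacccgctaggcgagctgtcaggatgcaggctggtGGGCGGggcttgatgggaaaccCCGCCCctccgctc
Srebf1, chr11:60222582-60222701: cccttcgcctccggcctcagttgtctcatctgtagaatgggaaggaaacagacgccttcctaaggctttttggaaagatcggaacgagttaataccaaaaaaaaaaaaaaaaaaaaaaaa
The last Srebf1 stretch held none of these letters. Promoters were at hand for 25 of the 31 listed genes, and the 250 bases before the start were searched. The SRE-like letters stood in 1 of the 25 genes, Hmgcs1, and in 1.22% of all 27025 genes with a promoter. CCAAT stood in 19 of the 25 genes, against 37.5% of all genes. By role these were 14 of 15 synthesis genes, 4 of 5 sterol sensing genes and 1 of 5 uptake and transport genes. The GC box stood in 23 of the 25 genes, against 35.4% of all genes. These are counts of letters and were not matched for base composition. Only exact matches were counted, with N as any base, so sites with other letters were missed. A promoter without the SRE-like letters may still hold a sterol response element.

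In the deposited table every probe set has a median of 0 across the 6 arrays, so its values show how samples differ and hold no level of expression. A probe set that detects no RNA would also lie near 0, and the values cannot tell that from an expressed gene with equal levels. Differences were floor plate minus ventral lateral on the log2 scale, tested with limma and called at a Benjamini-Hochberg adjusted p under 0.05 over all 45037 probe sets. By that rule 4.71% of all probe sets were called, 2.70% as higher and 2.01% as lower in floor plate. The median standard error of a difference was 0.127. Of 10 floor plate marker genes 9 had a probe set that was higher, against 4.58% of all genes. The exception was Shh (log2 difference 1.76, adjusted p = 0.0734). Of 8 ventral lateral marker genes 8 had one that was lower, against 3.25% of all genes. These lists were chosen with earlier results of these data known, so they are no independent check of the labels. The labels do not say whether the pools of both regions shared embryos, so the tests cover the spread among these 6 samples alone, which may be technical, and precision is limited by how few arrays there are. In such tissue pieces fewer cells of a type and less RNA per cell cannot be told apart.

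Of the cholesterol genes 1 was called different between floor plate and ventral lateral tissue, and the other 29 did not pass. Of the 66 probe sets 1 was called, 1.52% against 4.71% of all probe sets, and it belonged to Srebf1, which was higher in floor plate. At an unadjusted p under 0.05 there were 8 probe sets (12.1%), against 16.5% of all probe sets. The difference was positive for 1 of them (8.37% of all probe sets) and negative for 7 (8.12% of all probe sets). The 95% interval of the difference lay inside a 2-fold change in either direction for all 66 probe sets, as it did for 93.4% of all probe sets, and inside 1.5-fold for 59 (89.4% against 73.0%). The intervals are per probe set and not widened for their number.

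**Figure D1:**
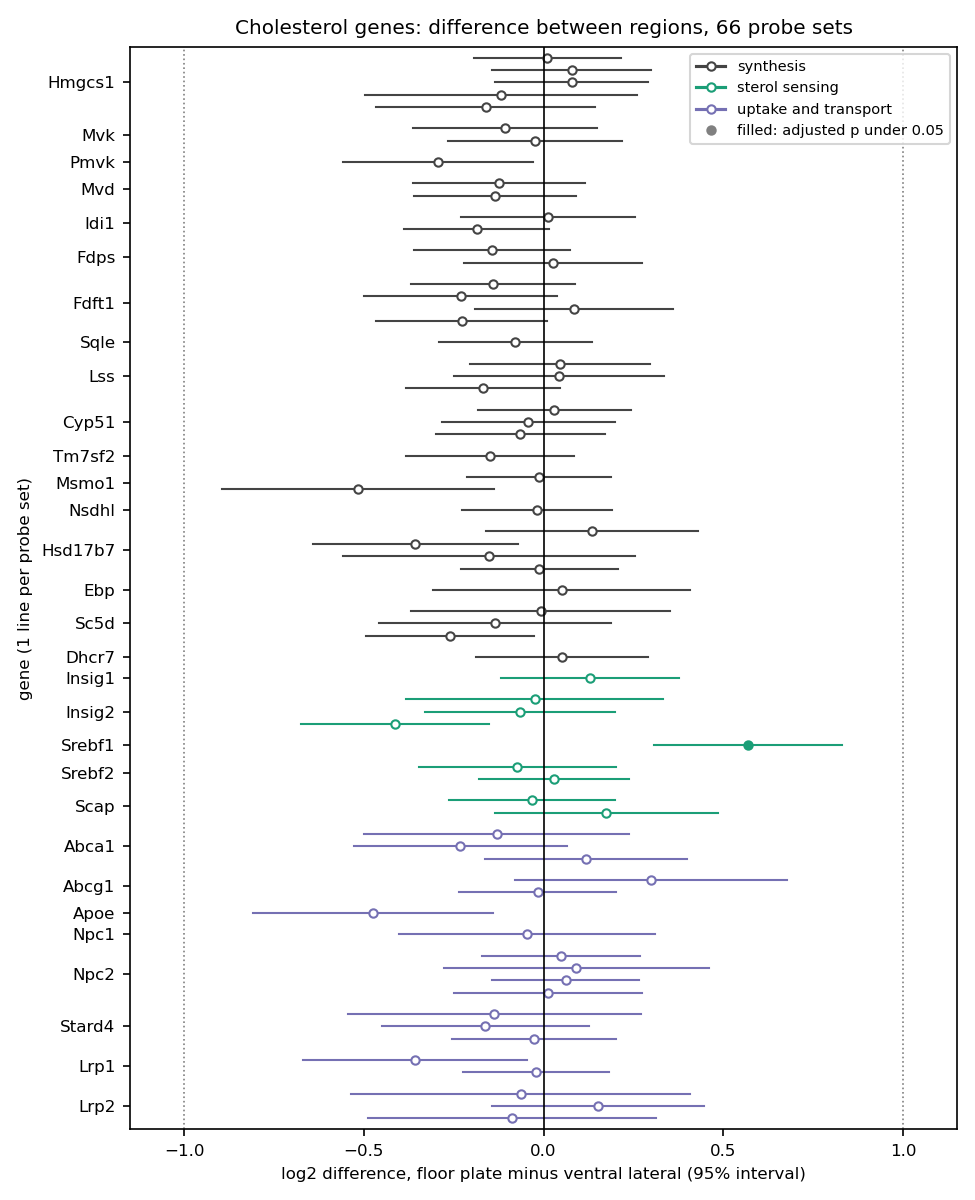
Log2 difference between floor plate and ventral lateral samples (x axis) for each of the 66 probe sets (y axis, grouped by gene), with 95% intervals as lines. Colours give the role, the filled point passed the threshold, and dotted lines mark 2-fold. Srebf1, at 0.57, is the one filled point, and no line reaches a dotted line.

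**Figure D2:**
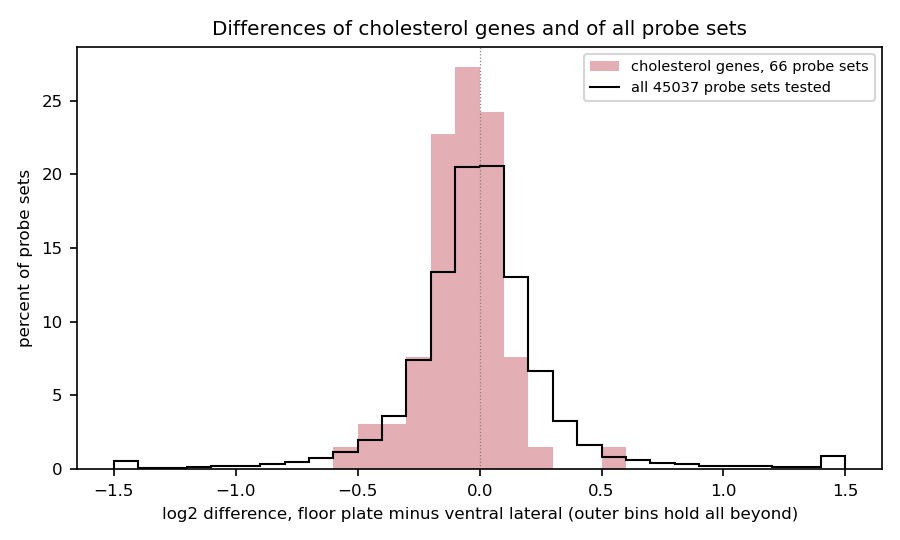
Percent of probe sets (y axis) by log2 difference, floor plate minus ventral lateral (x axis, bins of 0.1), for the 66 cholesterol probe sets (filled) and all 45037 tested (line). The cholesterol genes lie between -0.52 and 0.57, inside the wider spread of all probe sets.

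Srebf1 rose in floor plate and encodes the SREBP factor best known for fatty acid as well as sterol genes. Its probe set was at 0.32, 0.18 and 0.19 in the floor plate samples, against -0.49, -0.36 and -0.18 in the ventral lateral samples. All floor plate values were above all ventral lateral values. Floor plate samples averaged 0.23 ± 0.08, against -0.34 ± 0.16 for ventral lateral samples (SD, n = 3 each), a 1.48-fold higher signal (log2 difference 0.57, SE 0.11, 95% interval 0.31 to 0.83, adjusted p = 0.0306 in limma). Srebf1 has 1 probe set here, so no second measurement stands beside it. The call was lost in 5 of the 6 fits without 1 sample: leaving out floor plate replicate 1, 2 or 3 gave an adjusted p of 0.102, 0.0716 or 0.0807, and leaving out ventral lateral replicate 1 or 2 gave 0.101 or 0.0973. Leaving out ventral lateral replicate 3 gave 0.0372. The log2 difference stayed between 0.49 and 0.65 in those 6 fits.

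The other SREBP factor gene, Srebf2, which mainly drives sterol genes, did not pass. Its probe sets had log2 differences of -0.07 (95% interval -0.35 to 0.20) and 0.03 (95% interval -0.18 to 0.24). The second was at -0.06, 0.08 and 0.05 in floor plate, against 0.02, -0.02 and -0.02 in ventral lateral samples, so the groups overlapped. The difference between Srebf1 and Srebf2 was not tested. Scap, the escort of both factors, had differences of -0.03 and 0.17, neither past the threshold (adjusted p of 0.923 and 0.602).

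The Insig genes, which retain Scap in the endoplasmic reticulum, did not pass either. Insig1, itself a sensitive SREBP target, was at -0.04, 0.04 and 0.12 in floor plate, against -0.22, 0.05 and -0.10 in ventral lateral samples. These groups overlapped, and the log2 difference was 0.13 (95% interval -0.12 to 0.38, adjusted p = 0.632). Insig2 had the lowest adjusted p after Srebf1. That gene and the others named for their size from here on were picked after their values were seen. On that probe set Insig2 was at -0.12, -0.12 and -0.10 in floor plate, against 0.42, 0.10 and 0.38 in ventral lateral samples, without overlap. The log2 difference was -0.41 (95% interval -0.68 to -0.15) and the adjusted p 0.0989. Its other probe sets, at -0.02 and -0.07, did not show a difference of that size.

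Among the synthesis genes 0 of 17 had a probe set past the threshold in either direction (limma), where 4.58% of all genes had one that was higher and 3.25% one that was lower. Of their 38 probe sets 4 (10.5%) had an unadjusted p under 0.05, all with negative differences. Of all probe sets 16.5% had such a p in either direction and 8.12% had it with a negative difference. The median log2 difference was -0.07 over the 38 probe sets and -0.0040 over all probe sets. The difference was below 0 for 26 of the 38 (68.4%), against 50.8% of all probe sets. Probe sets of one gene share their RNA, so these are not 38 separate measurements.

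The first steps, from Hmgcs1, which makes HMG-CoA, to the isoprenoid farnesyl diphosphate, showed small differences. Hmgcs1 had 5 probe sets, at -0.16 to 0.08, and their intervals together reached from -0.50 to 0.30. Its probe set with the smallest spread in floor plate was at -0.0021, 0.03 and 0.02 in floor plate, against -0.15, -0.03 and 0.0021 in ventral lateral samples, with overlap. The mevalonate kinase gene Mvk (-0.11 and -0.02) and the decarboxylase gene Mvd (-0.12 and -0.14) did not pass on any probe set. Pmvk, encoding phosphomevalonate kinase, had 1 probe set, at -0.03, -0.24 and -0.34 in floor plate, against 0.20, 0.03 and 0.04 in ventral lateral samples. Its groups did not overlap, but it missed the threshold (log2 difference -0.29, 95% interval -0.56 to -0.03, adjusted p = 0.248). The isomerase gene Idi1 was split between probe sets, at 0.01 and -0.19. On the second it was at -0.07, -0.14 and -0.07 in floor plate, against 0.11, 0.08 and 0.07 in ventral lateral samples. That gap was wider than the spread within either region, but the adjusted p was 0.347. Fdps, whose product farnesyl diphosphate is shared with other isoprenoid branches, was at -0.14 and 0.03.

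Squalene is made by the product of Fdft1, oxidised by that of Sqle and closed into lanosterol by that of Lss. Fdft1 had 4 probe sets, at -0.14, -0.23, 0.08 and -0.23, none past the threshold (adjusted p of 0.324 to 0.805). The 2 at -0.23 had all floor plate values below all ventral lateral values, and the other 2 did not. Sqle, a rate-limiting enzyme gene, was at -0.10, 0.01 and -0.01 in floor plate, against -0.02, 0.07 and 0.09 in ventral lateral samples. The groups overlapped, and the log2 difference was -0.08 (95% interval -0.29 to 0.13). Lss was at 0.05, 0.04 and -0.17 on its 3 probe sets.

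The genes that turn lanosterol into cholesterol did not pass either. The demethylase gene Cyp51 was between -0.07 and 0.03 on 3 probe sets, and Nsdhl, an X-linked decarboxylating enzyme gene, was at -0.02 (95% interval -0.23 to 0.19). The reductase gene Dhcr7, which acts at the last step, was at 0.18, -0.0044 and -0.05 in floor plate, against 0.05, -0.08 and 0.0044 in ventral lateral samples. The groups overlapped, with a log2 difference of 0.05 (95% interval -0.19 to 0.29). Ebp, a sterol isomerase gene, differed more between floor plate samples (-0.27, 0.01 and 0.33) than between regions (0.05). Tm7sf2, a sterol reductase gene, was at -0.15 (adjusted p = 0.544).

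Msmo1, encoding the sterol methyl oxidase, had one probe set at -0.11, -0.12 and -0.65 in floor plate, against 0.11, 0.37 and 0.20 in ventral lateral samples. Those groups did not overlap (log2 difference -0.52, 95% interval -0.90 to -0.14, adjusted p = 0.15), but floor plate replicate 3 stood apart from the other 2. The second Msmo1 probe set was at -0.01 (95% interval -0.21 to 0.19). Hsd17b7, a sterol ketoreductase gene, had 4 probe sets, at 0.13, -0.36, -0.15 and -0.01, and the one at -0.36 had an adjusted p of 0.189. Sc5d, a sterol desaturase gene, had differences of -0.01, -0.14 and -0.26, the last with an adjusted p of 0.244. Of the 20 members with several probe sets 8 had all differences on one side of 0 and 12 had both signs.

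In 9 of the 38 synthesis probe sets (23.7%) the groups did not overlap, near the 22.4% of all probe sets in either direction. In all 9 floor plate was lower, a direction in which 11.0% of all probe sets had their groups apart, and in 0 it was higher, against 11.5%. The direction was picked after the values were seen. They belonged to Pmvk, Idi1, Fdps, Fdft1 (2 probe sets), Lss, Msmo1, Hsd17b7 and Sc5d. Averaged over the 17 genes, the synthesis group was at -0.04, -0.06 and -0.04 in floor plate, against 0.06, 0.03 and 0.03 in ventral lateral samples. These means did not overlap, and they differed by -0.09. The mean of the 5 sterol sensing genes, Srebf1 among them, was also apart, with floor plate higher. It was at 0.07, 0.0051 and 0.07 in floor plate, against -0.12, -0.04 and -0.05 in ventral lateral samples. Of these 5 genes only Srebf1 was called, and its difference was the largest in size. Over the 9 sterol sensing probe sets the median log2 difference was -0.02. Of the 9, 5 were below 0 (55.6%), against 50.8% of all probe sets. How far Srebf1 alone sets the group mean was not tested. For all named genes the mean over genes was -0.0030 to 0.0084 across floor plate samples, against -0.010 to 0.00090 across ventral lateral samples. The median over the synthesis probe sets was below 0 under all alternatives run, from -0.11 to -0.01. Some of these, such as robust eBayes, the replicate block and the stricter threshold, cannot change this median. The others reuse the same arrays, so the shared sign is not separate evidence. The mean of the pan-neuronal marker list moved the same way. It was between -0.33 and -0.05 in floor plate and between -0.03 and 0.36 in ventral lateral samples. Of its 8 genes 2 were lower (Ina and Stmn2), where 3.25% of all genes were lower, and 0 were higher. At an unadjusted p under 0.05, 11 of its 22 probe sets had a negative and 0 a positive difference. Over all probe sets those shares were 8.12% and 8.37%. The median log2 difference of the pan-neuronal probe sets was -0.40. The mean of the cycling cell list was between 0.03 and 0.11 in floor plate and between -0.14 and -0.02 in ventral lateral samples. Of its 7 genes 0 passed the threshold, and 3 of 13 probe sets had an unadjusted p under 0.05, with positive differences. Their part in the result was not tested.

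**Figure D3:**
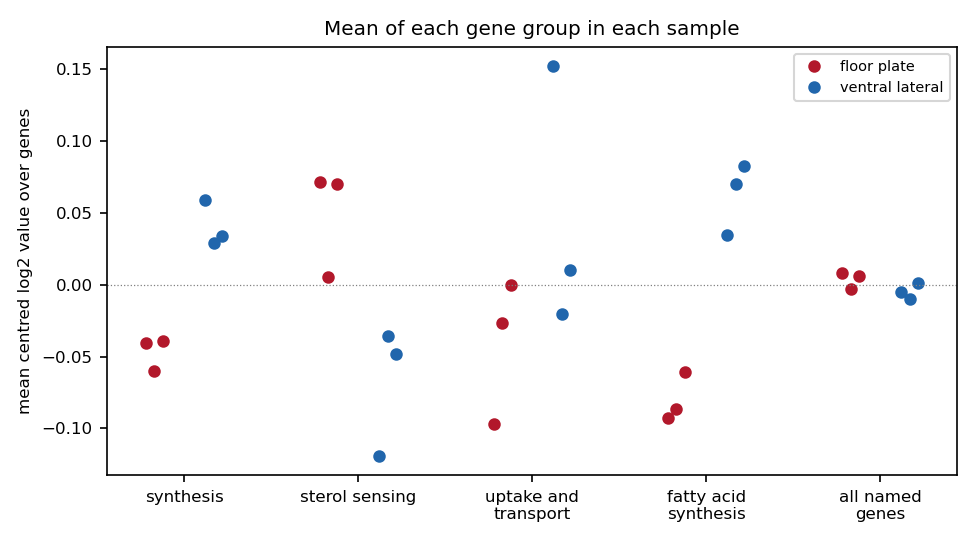
Mean centred log2 value over the genes of each group (y axis) in each of the 3 floor plate and 3 ventral lateral samples (points). The synthesis points lie at -0.06 to -0.04 for floor plate, against 0.03 to 0.06 for ventral lateral. The fatty acid synthesis points also lie apart with floor plate lower. The sterol sensing points lie apart with floor plate higher, in a mean that includes Srebf1, the 1 called gene. The points of uptake and transport and of all named genes overlap.

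Uptake and transport genes did not pass on any of their 19 probe sets (0 of 8 genes in limma). At an unadjusted p under 0.05 there were 2 of the 19 (10.5%), both negative, against 16.5% of all probe sets (8.12% negative). The group's median log2 difference was -0.03, and 12 of the 19 were below 0 (63.2%), against 50.8% of all probe sets. Under the alternatives the median was between -0.10 and 0.02. It was above 0 with array weights (0.0069, 9 of 19 below 0) and without ventral lateral replicate 1. In 1 of the 19 (5.26%) the groups did not overlap, with floor plate lower, against 22.4% of all probe sets in either direction and 11.0% with floor plate lower. Averaged over the 8 genes, the values were -0.10, -0.03 and -7.80e-05 in floor plate, against 0.15, -0.02 and 0.01 in ventral lateral samples. Ventral lateral replicate 1 was the highest, and the other samples of both regions overlapped. Synthesis and transport genes had mean differences of the same size (-0.09 and -0.09), and whether the groups differ from each other was not tested. Without ventral lateral replicate 1 the median of the transport probe sets was 0.02, and that of the synthesis probe sets -0.05.

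Apoe, the main lipoprotein carrier of sterols between cells of the brain, had the transport group's widest difference. It was at -0.40, -0.28 and -0.04 in floor plate, against 0.46, 0.19 and 0.04 in ventral lateral samples. The groups did not overlap, and replicate 3 of each region lay nearest to 0. Floor plate samples averaged -0.24 ± 0.18, against 0.23 ± 0.21 for ventral lateral samples (SD, n = 3 each), and the log2 difference was -0.47 (95% interval -0.81 to -0.14, adjusted p = 0.136). Macrophages also make much Apoe. Of 8 macrophage and microglia markers 0 passed the threshold (limma, 2 of 14 probe sets at an unadjusted p under 0.05, in opposite directions), and their mean was between -0.15 and 0.13 in floor plate and between -0.06 and 0.06 in ventral lateral samples. Their part in the Apoe values was not tested.

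The export pump genes did not pass. Abca1, which loads cholesterol onto apolipoproteins, was at -0.13, -0.23 and 0.12 on its 3 probe sets. Abcg1 was at 0.30 and -0.02, and the first had values of -0.10, 0.23 and 0.45 in floor plate, against 0.02, -0.02 and -0.32 in ventral lateral samples. The regions overlapped there (95% interval -0.08 to 0.68, adjusted p = 0.434).

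The genes of sterol carriers inside the cell did not pass on any probe set. The 4 probe sets of Npc2, a soluble lysosomal sterol carrier, were between 0.01 and 0.09, and its membrane partner Npc1 was at -0.05 (95% interval -0.40 to 0.31). Npc1 varied more among ventral lateral samples, from -0.23 to 0.35, than between regions. Stard4, a cytosolic sterol carrier, was at -0.14, -0.16 and -0.03.

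The large endocytic receptors gave no called difference. Lrp1, which takes up Apoe-bearing particles, was at -0.02 (95% interval -0.22 to 0.18) on one probe set and at -0.36 (95% interval -0.67 to -0.05, adjusted p = 0.232) on the other. Lrp2, or megalin, is known in mouse embryos for Sonic hedgehog handling in the forebrain midline. It was at 0.01, 0.42 and -0.16 in floor plate, against 0.53, -0.01 and -0.05 in ventral lateral samples, on one probe set. The samples of both regions were mixed, and the 3 probe sets had differences of -0.06, 0.15 and -0.09. Their intervals together reached from -0.54 to 0.45.

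Other genes of sterol handling were listed beside the members, and 20 of 26 had a singly annotated probe set. Of these 1 was higher in floor plate and 0 lower in limma, against 4.58% and 3.25% of all genes. At an unadjusted p under 0.05, 10 of 45 probe sets had a positive and 4 a negative difference. Over all probe sets those shares were 8.37% and 8.12%. The 10 all belonged to Vldlr, Lrp8 and Mbtps1, and the 4 to Cyp46a1, Stard3, Ptch1 and Abcg4. Probe sets of one gene share their RNA. The median log2 difference was -0.0032. The 1 gene called was Vldlr, the very-low-density lipoprotein receptor, which binds Apoe and also serves as a receptor for reelin. It was higher on 5 of its 6 probe sets, with log2 differences of 0.89 to 1.33. On the probe set with the lowest adjusted p it was at 0.77, 0.60 and 0.38 in floor plate, against -0.75, -0.38 and -1.11 in ventral lateral samples. The groups were well apart (log2 difference 1.33, SE 0.19, 95% interval 0.88 to 1.78, adjusted p = 0.00848), a 2.51-fold higher signal, beyond the range of any member. The number of called probe sets was 1, 2 or 3 of 6 when floor plate replicate 1, 2 or 3 was left out, and 3, 6 or 4 of 6 when ventral lateral replicate 1, 2 or 3 was left out. The related receptor gene Lrp8 had all floor plate values above all ventral lateral values on each of 3 probe sets, with differences of 0.37 to 0.52, and missed the threshold on each (adjusted p of 0.0532 to 0.087). It was at 0.23, 0.38 and 0.11 in floor plate, against -0.36, -0.11 and -0.32 in ventral lateral samples, on the probe set with the lowest adjusted p. Cyp46a1, the neuronal cholesterol hydroxylase gene, was at -0.62 (adjusted p = 0.0649), and Mbtps1, encoding a protease that cuts SREBPs in the Golgi, was at 0.36 on one probe set (adjusted p = 0.0697) and at 0.29 and -0.16 on the others.

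**Figure D4:**
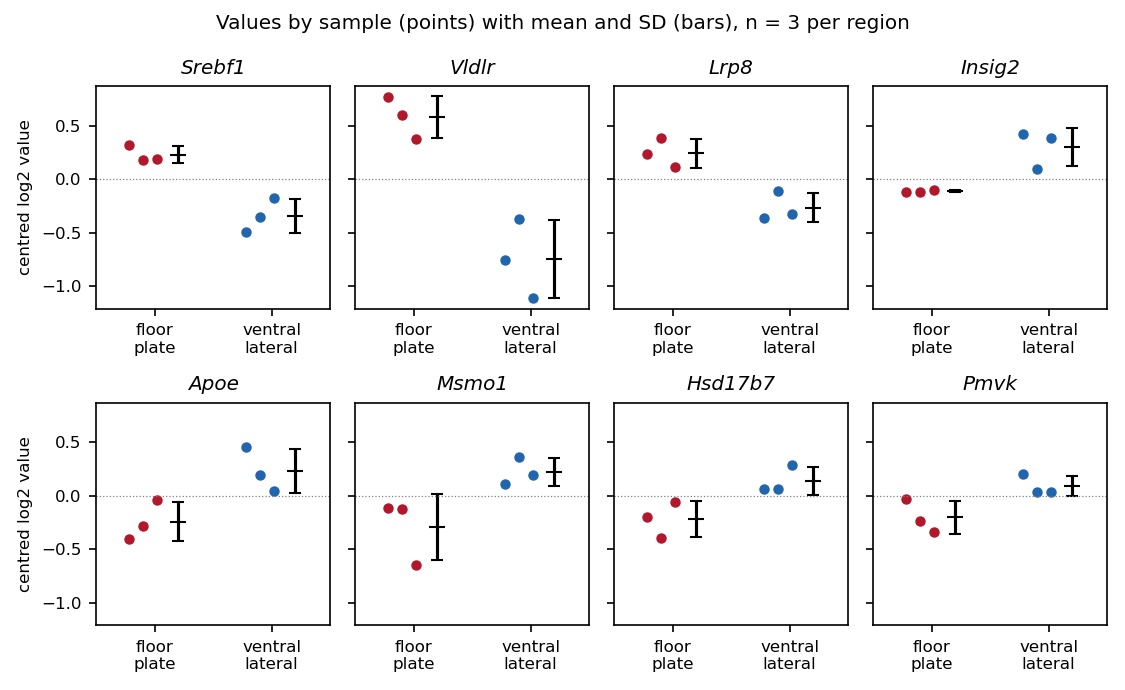
Centred log2 values (y axis) in the 3 floor plate and 3 ventral lateral samples (points, with mean and SD as bars) for the probe set with the lowest p of each of 8 genes. Srebf1 and Vldlr passed the threshold and lie higher in floor plate. Lrp8, Insig2, Apoe, Msmo1, Hsd17b7 and Pmvk missed it, with groups that do not overlap, as in 22.4% of all probe sets. The probe sets shown were picked by their p, and the others of Insig2, Msmo1 and Hsd17b7 had smaller differences.

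Fatty acid synthesis genes, many of them targets of the Srebf1 product, gave no higher call. Of 14 genes 0 were higher and 1 was lower, against 4.58% and 3.25% of all genes. That 1 was the malic enzyme gene Me1, which supplies NADPH. At an unadjusted p under 0.05, 0 of the 33 probe sets had a positive and 7 (21.2%) a negative difference. Over all probe sets those shares were 8.37% and 8.12%. The 7 belonged to Acly, Elovl6, Fasn, Me1 and Pnpla3, with Elovl6 and Me1 counted on more than 1 probe set. The median log2 difference was -0.10, and the group mean was between -0.09 and -0.06 in floor plate and between 0.03 and 0.08 in ventral lateral samples. Me1 was at -0.54, -0.38 and -0.17 in floor plate, against 0.17, 0.30 and 0.26 in ventral lateral samples. The log2 difference was -0.61 (SE 0.12, adjusted p = 0.0282), and that of its other probe set was -0.52 (adjusted p = 0.101). Me1 was called on no probe set without floor plate replicate 2 or without ventral lateral replicate 1, 2 or 3, and on 1 without floor plate replicate 1 or 3. The elongase gene Elovl6 was at -0.33, -0.36 and -0.23 (adjusted p of 0.0865 to 0.563), and the fatty acid synthase gene Fasn was at -0.25 (adjusted p = 0.228). Genes of the other isoprenoid branches, such as dolichol synthesis and protein prenylation, had 0 of 9 genes past the threshold and 0 of 17 probe sets at an unadjusted p under 0.05 (limma), with a median of 0.04 and differences of -0.17 to 0.21.

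Markers of other tissues were checked for the pieces as a whole. Of 7 endothelial genes 1 was lower (Cldn5), where 3.25% of all genes were lower. Of 8 mesenchyme and pericyte genes 1 was higher (Twist1, log2 difference 2.11), where 4.58% of all genes were higher. On the mesenchyme list 13 of 19 probe sets were below 0. At an unadjusted p under 0.05 its 2 probe sets besides that of Twist1, of Foxc1 and Prrx1, were lower in floor plate. Of 5 erythroid genes 0 passed (limma, 0 of 7 probe sets at an unadjusted p under 0.05). The endothelial mean was between -0.24 and 0.06 in floor plate and between 0.02 and 0.16 in ventral lateral samples. The mesenchymal mean, Twist1 included, was -0.32, 0.48 and -0.01 in floor plate replicates 1, 2 and 3. In ventral lateral replicates 1, 2 and 3 it was -0.50, 0.28 and -0.09, so its order by replicate number was the same in both regions. The erythroid mean was -0.15 to 0.11 across floor plate samples, against -0.09 to 0.26 across ventral lateral samples. The endothelial and erythroid means were also highest in replicate 2 of each region. The part of these tissues in the values of Srebf1 and Vldlr was not tested.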

How the data were processed

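Affymetrix mouse arrays of 3 floor plate and 3 ventral lateral pools were analysed. Per the labels' protocols, 5 ng of total RNA was amplified and labelled with biotin. RMA, which corrects background, normalizes and summarises probes, is named in the submitters' processing notes. For its version and settings, the sources used here name none. For the deposited values a log2 scale that increases with RNA was assumed; base, direction and centring are not stated. Each probe set had a median over the 6 arrays within 5e-07 of 0, and array medians were -0.0030 to 0.0045. Without a signal level, no dim probe set could be filtered and no signal over background is given.

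Probe sets were named from GEO's platform annotation: of 45101, 64 were controls, 34945 had 1 symbol, 932 several and 9160 none. RefSeq identifiers changed 0 symbols. All 45037 non-control probe sets entered a linear model in limma 3.58.1 (R 4.3.3; lmFit, then eBayes), and p-values were adjusted by Benjamini-Hochberg, with a threshold of 0.05. Every probe set was kept, since choosing the most variable one of a gene favours the one that differs most. A gene counted as higher or lower where at least 1 probe set passed. The fit was tested on simulated data. Members past the threshold, and any over 1.5-fold without passing, were to be given in every sample; Srebf1 met the first and none the second. From the other pathway lists at most 4 genes with the lowest adjusted p were named. Members and lists were chosen with earlier results of these data known. The alternatives were other sets of probe sets, further normalization, robust eBayes, array weights, a replicate block, a threshold of 0.01 and leaving out each sample. Also used were statmod 1.5.0, matplotlib 3.10.9, pandas 2.3.3 and Python 3.11.15.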

Additional observations from a re-analysis of the deposited data

How the results depend on the processing

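With 6 arrays small differences cannot be called, and centred values give no level. Synthesis genes and uptake and transport genes had no called member under any of the 17 alternatives. The count of higher sterol sensing genes (1, Srebf1) was 0 with the replicate block (adjusted p = 0.0736) and at a threshold of 0.01, and 0 to 1 without 1 sample. Srebf1 was called in 10 of the 17 alternatives. It has 1 probe set, so those that chose or averaged probe sets reused its values and changed only which others were tested. The counts over all probe sets, 1218 higher and 903 lower, were 679 and 497 with the lowest-numbered probe set per gene, which tests fewer features, 584 and 373 at a threshold of 0.01, and 753 to 991 and 510 to 743 without 1 sample. Leaving out floor plate replicate 1 gave 753 and 510, leaving out ventral lateral replicate 1 gave 800 and 562, leaving out ventral lateral replicate 3 gave 781 and 594, and leaving out floor plate replicate 3 gave 852 and 537. Of the other sterol genes 2 were higher with singly annotated probe sets and 2 with the mean of probe sets (Vldlr and Lrp8), and 2 were lower with the mean of probe sets (Cyp46a1 and Stard3) and 1 after quantile normalization (Cyp46a1); the cause was not tested. The 1 lower fatty acid gene was 0 with the lowest-numbered probe set, where another Me1 probe set is used, 0 at a threshold of 0.01 and 0 to 1 without 1 sample. Hsd17b7 had a log2 difference of 0.13 on its lowest-numbered probe set. Whether the replicate numbers pair the samples is not settled by the values. Deviations of samples with the same number correlated at 0.0096, 0.12 and 0.11 for replicates 1, 2 and 3. Replicates 2 and 3 of each region correlated best with their own number, and replicate 1 did not. The mesenchymal marker mean had the same order by replicate number in both regions. With the replicate block the counts over all probe sets were 1062 and 842.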
